A study of Mus musculus with 15 samples.

Results

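Brain gene expression was compared between mice given levodopa after MPTP and untreated control mice, with 3 libraries in each group. The libraries were chosen by their titles, and these 6 are part of 15 in the series. The others come from mice given MPTP alone, or MPTP and a BTK inhibitor at a low or a high dose. All 15 entered the main fits, where the groups share a common estimate of the spread. Levodopa mice received intraperitoneal MPTP for 1 week (20 mg/kg/day) and then levodopa at 2 mg/kg/day for 4 weeks. For levodopa the labels name 2 routes, oral in the protocol and intraperitoneal in the sample fields. Control mice received neither agent and were kept on a normal diet, for 5 weeks by their sample labels after 7 days of stabilization. Every mouse in the levodopa group had also received MPTP, so what levodopa did and what MPTP did cannot be told apart in this comparison. The 3 MPTP libraries, from mice given MPTP for 1 week and then a normal diet for 4 weeks, are therefore shown beside the results without a test. The labels name the tissue as brain without a region and give no strain, sex or age. The protocol gives 8 mice per group and does not say whether the libraries of a group come from different mice. The p-values therefore measure only the spread between libraries, which may be technical.

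MPTP is a toxin whose metabolite enters dopamine neurons through the dopamine transporter and blocks complex I of the mitochondrial respiratory chain. Levodopa is the precursor of dopamine. It crosses the blood-brain barrier on the large neutral amino acid transporter of brain endothelial cells, and aromatic amino acid decarboxylase converts it to dopamine. Repeated levodopa in dopamine-depleted rodents is known for inducing the FosB family of transcription factors in the striatum.

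The 6 libraries held 63314658 to 68257095 counted reads, so 3 reads make up no more than 0.0474 CPM (reads scaled to a common library size). Library 2 of both groups had high levels of cerebellar markers. Gabra6, which encodes a GABA-A subunit particular to granule cells of the cerebellum (GRCm38 chromosome 11, 42306437 to 42321072), was at 0, 649 and 1.19 CPM in controls 1, 2 and 3 and at 0.0587, 556 and 3.18 CPM in levodopa 1, 2 and 3. A second fit therefore took control 2 and levodopa 2 as a separate level, called the cerebellar block below. Striatal, choroid plexus and hypothalamic markers also differed between libraries of a group, and their values are given beside the results they touch. In bulk tissue, fewer cells of a type and less RNA per cell cannot be told apart.

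No gene passed the adjusted threshold of 0.05 in either fit. With edgeR, 0 of 21821 genes passed without the block, and 816 (3.74%) were under 0.05 before adjustment. DESeq2 called 66, of which 41 were higher and 25 lower. With the cerebellar block, edgeR called 0 genes, and 1790 (8.2%) were under 0.05 before adjustment. DESeq2 with the block called 186, of which 130 were higher (0.69%) and 56 lower (0.297%). The smallest edgeR adjusted p was 0.323 without the block and 0.0547 with it, both for the predicted gene Gm14303, which is named only because it holds these values. The results below are therefore levels per library, with counts of genes whose 3 levodopa libraries all lay above, or all below, the 3 control libraries. Over all genes tested, 3.31% lay higher without overlap and 3.11% lower, and the median log2 fold change was -0.01.

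Genes of blood vessels formed the list with the most members separated between the groups. Of the 21 endothelial and pericyte genes, 13 had all levodopa libraries above all controls, against 3.31% of all genes, and 0 were separated in the lower direction. All 21 had a positive log2 fold change, with a median of 0.74 against -0.01 over all genes. At an unadjusted p under 0.05, 15 of the 21 were higher, against 2.03% of all genes, while edgeR called 0 after adjustment. DESeq2 called 4 of them higher (Slc2a1, Acta2, Flt1 and Tie1), against 0.193% of the genes to which it gave an adjusted p.

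Slc2a1, the glucose transporter of the blood-brain barrier (GRCm38 chromosome 4, 119108745 to 119137330), had the smallest p of the list. It was at 63.2, 68.6 and 75.4 CPM in the controls and at 103, 117 and 116 CPM after levodopa. The lowest levodopa library lay above the highest control. The means were 69.0 ± 6.10 and 112 ± 7.56 CPM (SD, n = 3 each), a difference of 0.70 on the log2 scale (SE 0.13, edgeR adjusted p = 0.428). The MPTP libraries were at 85.0, 114 and 94.9 CPM, above every control. With DESeq2 the adjusted p of Slc2a1 was 0.00164 without the cerebellar block and 0.000397 with it. Alternatives were followed for single genes without that block and in the edgeR fit with it, and there the adjusted p ran from 0.00164 to 1.00.

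Receptors of vessel growth had higher values in most cases. Flt1, a VEGF receptor (chromosome 5, 147561604 to 147726438), was at 34.5, 34.6 and 42.0 CPM in the controls and 99.1, 84.1 and 69.2 CPM after levodopa. Its groups did not overlap, and its log2 fold change was 1.18 (SE 0.28, edgeR adjusted p = 0.673). Tie1, an orphan receptor of the angiopoietin system, was at 6.22, 5.91 and 5.54 CPM against 16.8, 13.8 and 10.5 CPM, also without overlap. Tek, the angiopoietin receptor, was at 9.77, 9.75 and 13.3 CPM against 25.5, 18.6 and 14.5 CPM, where levodopa 3 lay close to control 3. Kdr, the main signalling receptor for VEGF, was at 12.0, 8.70 and 12.0 CPM against 22.3, 14.0 and 11.4 CPM and overlapped.

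Junction and adhesion genes followed the same order with exceptions. Cdh5, the cadherin of endothelial junctions, was at 6.41, 9.51 and 8.11 CPM in the controls and 19.1, 14.1 and 12.8 CPM after levodopa. Pecam1, an endothelial adhesion molecule, was at 11.1, 13.7 and 14.1 CPM against 25.9, 18.4 and 20.6 CPM. Neither overlapped. Cldn5, the main claudin of brain endothelial tight junctions, was at 12.9, 11.1 and 20.0 CPM against 49.8, 22.0 and 18.6 CPM. Its log2 fold change was 1.04, but levodopa 3 lay below control 3. Ocln, which encodes occludin, was at 6.21, 20.3 and 7.87 CPM against 12.0, 24.1 and 11.1 CPM, and in both groups library 2 was the highest.

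Transporters of the barrier included the carrier of levodopa itself. Slc7a5, the large neutral amino acid transporter (chromosome 8, 121881146 to 121907686), was at 26.7, 47.1 and 25.2 CPM in the controls and 45.3, 58.2 and 52.7 CPM after levodopa. The groups overlapped because control 2, a library with cerebellar markers, lay above levodopa 1. Within libraries 1 and 3, and within library 2, the levodopa library was higher. The log2 fold change of Slc7a5 was 0.66 without the block (SE 0.22, edgeR adjusted p = 1.00) and 0.71 with it (edgeR adjusted p = 0.207). DESeq2 called Slc7a5 higher with the block (DESeq2 adjusted p = 0.00424) and did not call it without the block. The MPTP libraries, which had no levodopa, were at 46.5, 53.8 and 48.3 CPM, within the range of the levodopa libraries. Abcb1a, the P-glycoprotein efflux pump, was at 23.1, 26.3 and 32.9 CPM against 48.8, 51.0 and 40.8 CPM without overlap. Slco1a4, an organic anion transporter, was at 51.9, 43.7 and 53.6 CPM against 78.6, 84.9 and 73.6 CPM, again without overlap. Mfsd2a, a lipid transporter of the barrier, was at 18.4, 8.92 and 24.0 CPM against 23.4, 17.9 and 26.8 CPM and overlapped.

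Among mural cell genes, contractile genes were separated and pericyte markers were mixed. Acta2, smooth muscle actin (chromosome 19, 34240336 to 34255585), was at 6.00, 5.11 and 5.63 CPM in the controls and 20.5, 11.8 and 13.1 CPM after levodopa, a difference of 1.44 on the log2 scale (SE 0.32, edgeR adjusted p = 0.532). The MPTP libraries were at 5.84, 12.1 and 7.71 CPM, and MPTP 1 lay among the controls. Tagln, a smooth muscle actin-binding protein, was at 3.37, 1.30 and 3.27 CPM against 7.54, 3.90 and 6.25 CPM without overlap. The pericyte markers Rgs5 and Kcnj8 were also separated, with log2 fold changes of 0.76 and 0.53. Pdgfrb, Vtn and Abcc9, which mark pericytes as well, overlapped between the groups and had log2 fold changes of 0.25, 0.21 and 0.09.

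**Figure D1:**
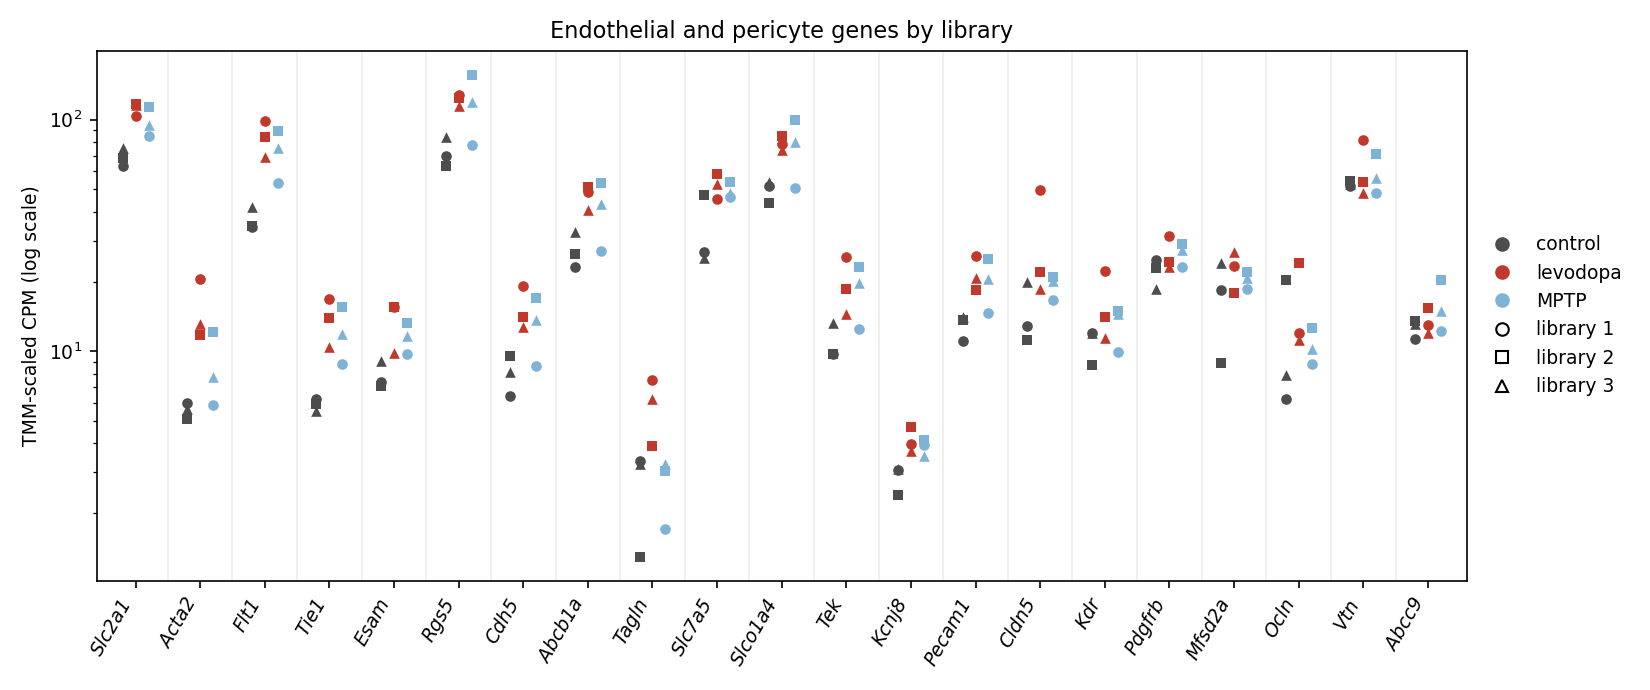
Levels of the 21 endothelial and pericyte genes in TMM-scaled CPM (vertical log axis), 1 point per library, with genes ordered from left by increasing p. For 13 genes every levodopa point (red) lies above every control point (dark grey), and MPTP points (blue) are shown beside them.

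The median log2 fold change of the list ran from 0.67 to 0.79 over the alternatives, and was 0.73 with the cerebellar block. With the block, 15 of the 21 members were higher without overlap within both levels, against 11.7% of all genes, a count that includes every gene separated over all 6 libraries. Also with the block, 16 members were higher at an unadjusted p under 0.05, against 4.61% of all genes, and DESeq2 called 7 higher, against 0.69%.

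The list score, the mean log2 CPM of the members centred on the 6 libraries, was -0.42, -0.43 and -0.25 in the controls and 0.57, 0.35 and 0.18 after levodopa. In the MPTP libraries it was -0.22, 0.42 and 0.17, so MPTP 2 and 3 lay beside the levodopa libraries and MPTP 1 beside control 3. Blood and meninges gave smaller medians. The 9 blood genes tested had a median log2 fold change of 0.03 with 0 separated, and haemoglobin took 0.0115% to 0.0198% of reads in the controls and 0.0111% to 0.0260% after levodopa. The 17 leptomeningeal genes had a median of 0.38, which was 0.10 without levodopa 1. Of the 17, Col1a1, Foxc1 and Tbx18 were separated in the higher direction, against 3.31% of all genes. The leptomeningeal score was -0.49, 0.03 and 0.14 in the controls and 0.62, -0.55 and 0.26 after levodopa. Thus levodopa 2 had a low leptomeningeal score and a high vascular one, while levodopa 1 was the highest of the 6 libraries on both. In the MPTP libraries the leptomeningeal score was -1.24, 0.01 and 0.14. MPTP 1 was the lowest MPTP library on both lists. The part of meningeal tissue in the vascular values was not tested.

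Several vascular genes outside the list had among the smallest p-values of the whole comparison. Podxl, a sialomucin of the endothelial surface, was at 18.7, 18.4 and 18.7 CPM in the controls and 49.7, 40.4 and 36.4 CPM after levodopa. The means of Podxl were 18.6 ± 0.173 and 42.2 ± 6.81 CPM (SD, n = 3 each), a difference of 1.18 on the log2 scale (SE 0.22, edgeR adjusted p = 0.428). Cavin1, a coat protein of caveolae, was at 12.2, 13.9 and 14.3 CPM against 34.9, 20.0 and 25.2 CPM. Cxcl12, a chemokine made by brain vessels among other cells, was at 25.9, 31.1 and 27.2 CPM against 62.2, 58.4 and 46.9 CPM. Myl9, a myosin light chain of smooth muscle, was at 8.95, 9.59 and 8.82 CPM against 19.9, 14.2 and 16.4 CPM. These genes were taken from those whose groups did not overlap, so their separation is how they were chosen. Epas1, the hypoxia-inducible factor abundant in endothelium, was at 130, 108 and 147 CPM against 224, 176 and 188 CPM.

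**Figure D2:**
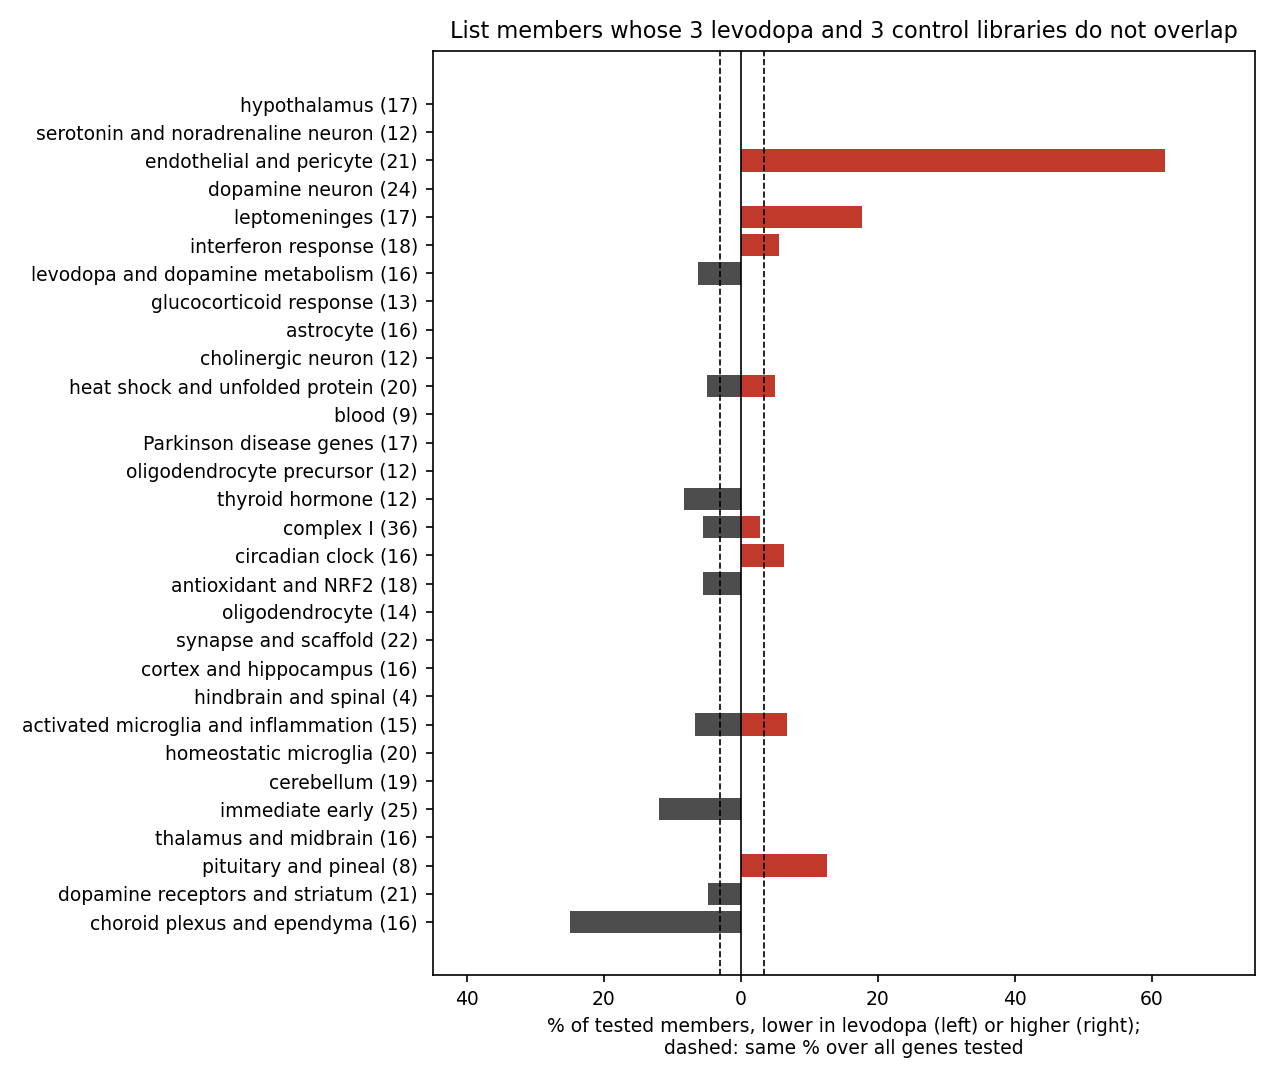
Share of tested members of each list (horizontal axis, %, number of members in brackets) whose 3 levodopa libraries all lay above (red, right) or below (dark grey, left) the 3 controls. Dashed lines mark 3.31% and 3.11%, the shares over all genes, and the endothelial and pericyte list reaches furthest to the right.

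Immediate early genes, which neurons transcribe within minutes of activity, had lower values after levodopa for a few members. Of 25 tested, Fosb, Fos and Egr1 were separated in the lower direction, against 3.11% of all genes, 19 had a negative log2 fold change, and the median was -0.32. Matches to the TGACG core of the cAMP response element, the site bound by CREB, stand before the starts of Fos and of the related stress gene Atf3. The groups of both genes were separated in the lower direction, as were those of Fosb and Egr1, for which no sequence is printed. The 250 bases before the starts of Fos and Atf3 are printed as examples. They come from RefSeq (GRCm38.p6), read 5′ to 3′ on the gene's strand, with TGACG or its reverse complement CGTCA in capitals.

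Fos, plus strand, chr12:85473640-85473889: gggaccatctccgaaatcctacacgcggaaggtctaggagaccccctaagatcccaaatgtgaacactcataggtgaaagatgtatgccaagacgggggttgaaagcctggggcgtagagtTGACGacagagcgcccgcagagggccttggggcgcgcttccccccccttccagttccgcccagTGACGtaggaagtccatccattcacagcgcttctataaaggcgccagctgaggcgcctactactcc
Atf3, minus strand, chr1:191183334-191183583: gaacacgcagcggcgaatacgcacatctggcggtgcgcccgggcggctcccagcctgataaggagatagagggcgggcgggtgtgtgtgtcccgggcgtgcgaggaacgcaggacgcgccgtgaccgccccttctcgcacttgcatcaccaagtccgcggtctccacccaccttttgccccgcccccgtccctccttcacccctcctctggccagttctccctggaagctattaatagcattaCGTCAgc

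TGACG on either strand was found in 17.8% of all 32851 promoter windows of this length. The immediate early list had 31 windows, from 19 of its 25 genes, and 17 of these windows (54.8%) held a match. A match is a description of the letters and shows no binding.

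Fosb, a partner of Jun in AP-1 (chromosome 7, 19302696 to 19310118), was at 16.6, 16.7 and 19.0 CPM in the controls and 3.93, 2.19 and 7.32 CPM after levodopa. The highest levodopa library lay below the lowest control. The means of Fosb were 17.4 ± 1.38 and 4.48 ± 2.61 CPM (SD, n = 3 each), a difference of -1.96 on the log2 scale (SE 0.44, edgeR adjusted p = 0.532). The MPTP libraries were at 11.5, 12.7 and 5.04 CPM, below every control, and MPTP 1 and 2 lay above every levodopa library. Over the same alternatives as for Slc2a1, the log2 fold change of Fosb ran from -2.50 to -1.65.

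Fos, the AP-1 subunit used as an activity marker (chromosome 12, 85473890 to 85477274), was at 38.1, 64.6 and 41.2 CPM against 24.8, 26.4 and 29.6 CPM, a difference of -0.83 on the log2 scale (edgeR adjusted p = 0.935). Egr1, a zinc finger factor induced by activity, was at 158, 88.1 and 73.1 CPM against 58.6, 56.7 and 59.0 CPM. The levodopa libraries lay close together, while control 1 was the highest. Atf3, a stress-induced factor chosen by its p-value and not from the list, was at 2.14, 2.99 and 3.42 CPM against 0.865, 1.11 and 0.915 CPM, also without overlap. In the MPTP libraries, Fos was at 23.2, 28.4 and 22.5 CPM and Egr1 at 46.0, 63.1 and 70.2 CPM. Atf3 was at 1.07, 1.05 and 0.401 CPM there, and all these values lay below every control of their gene. Nr4a1, an orphan nuclear receptor, was at 47.9, 45.2 and 15.3 CPM against 12.7, 22.9 and 24.6 CPM, and control 3 lay below 2 levodopa libraries. Homer1, a postsynaptic scaffold with an activity-induced short form, was at 97.1, 33.6 and 37.6 CPM against 23.9, 36.2 and 40.6 CPM, so its log2 fold change of -0.74 rested on control 1.

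Control 1 also had the highest striatal markers, and the part of striatal tissue in the activity-induced genes was not tested. Its striatal score was 2.52, against -2.0 and 0.49 in controls 2 and 3 and -0.32, -1.34 and 0.65 after levodopa. Without control 1 the median of the immediate early list was -0.03. In that fit the log2 fold change of Homer1 was -0.08, and those of Fosb, Fos and Egr1 were -2.0, -0.97 and -0.47.

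Choroid plexus genes were lower after levodopa in most members, with control 3 far above the rest. Of 16 tested, 15 had a negative log2 fold change, the median was -1.40, and 4 (Ttr, Kcne2, Folr1 and Cldn2) were separated in the lower direction, against 3.11% of all genes. At an unadjusted p under 0.05, 7 were lower, against 1.7% of all genes. DESeq2 called Ttr and Kcne2 lower, against 0.118% of the genes to which it gave an adjusted p. With the cerebellar block, 9 of the 16 were lower at an unadjusted p under 0.05, against 3.59%, and 5 were separated in the lower direction within both levels, against 11.2%. Ttr, transthyretin, the thyroid hormone carrier secreted by the choroid plexus (chromosome 18, 20664209 to 20674326), was at 45.3, 95.4 and 857 CPM in the controls and 1.5, 5.91 and 11.4 CPM after levodopa. The lowest control lay above the highest levodopa library, and the log2 fold change was -5.73 (SE 1.26, edgeR adjusted p = 0.532). The MPTP libraries were at 1.20, 7.64 and 1.92 CPM, within or below the levodopa range.

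Kcne2, a potassium channel subunit of the choroid plexus, was at 0.386, 0.952 and 6.43 CPM against 0.088, 0.0805 and 0.189 CPM. Folr1, a folate receptor, was at 0.831, 0.624 and 5.96 CPM against 0.513, 0.0966 and 0.567 CPM. Cldn2, a claudin of the plexus epithelium, was at 0.876, 0.985 and 5.58 CPM against 0.733, 0.628 and 0.770 CPM. In Folr1 and Cldn2 the lower controls lay just above the levodopa libraries, and control 3 carried most of the difference. The choroid plexus score was 0.24, -0.17 and 2.02 in the controls and -0.49, -1.54 and -0.05 after levodopa. Without control 3 the list median was -0.48. In that fit the log2 fold changes of Ttr and Kcne2 were -3.49 and -2.47, and those of Folr1 and Cldn2 were -0.90 and -0.40. F5, coagulation factor V, named by its p-value and not from the list, was at 1.19, 3.04 and 16.4 CPM against 0.733, 0.821 and 1.00 CPM and also peaked in control 3. The part of choroid plexus tissue carried along in a library was not tested.

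**Figure D3:**
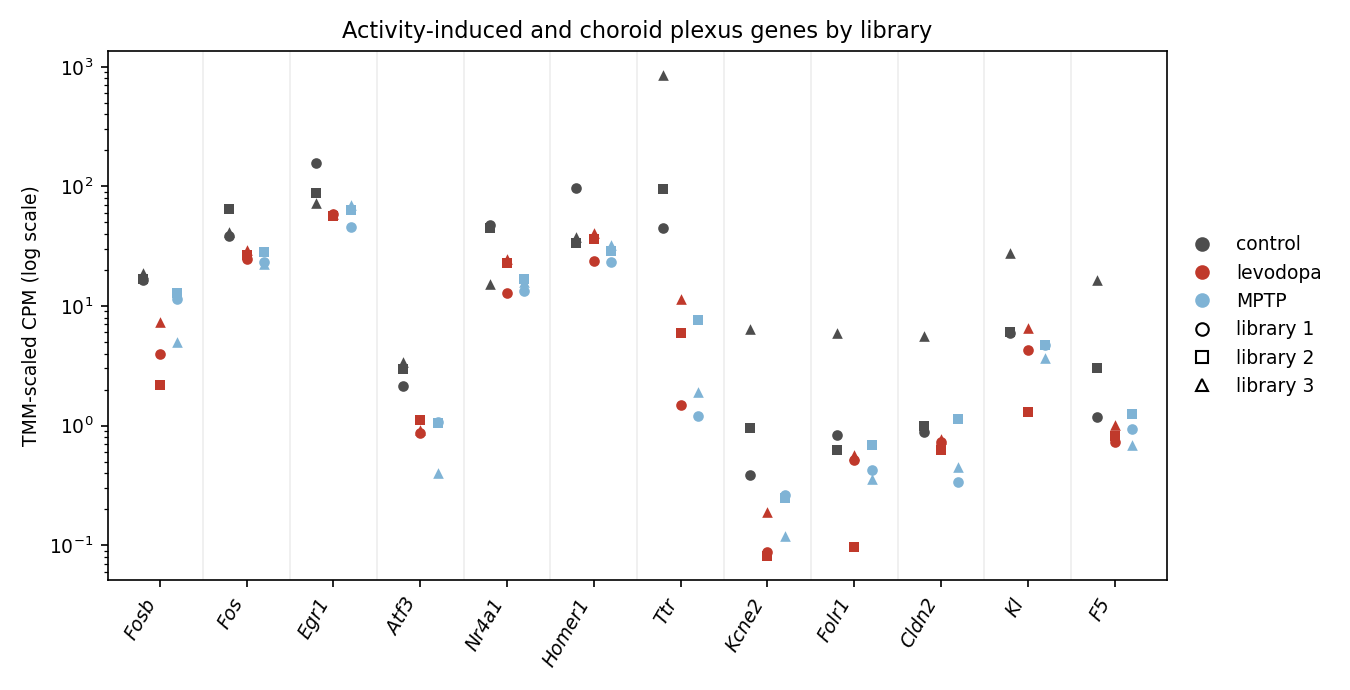
Levels of activity-induced genes (left) and choroid plexus genes (right) in TMM-scaled CPM (vertical log axis), 1 point per library. Levodopa points (red) lie below all control points (dark grey) for Fosb, Fos, Egr1, Atf3, Ttr, Kcne2, Folr1, Cldn2 and F5, with control 3 the highest in each choroid plexus gene shown.

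Genes of dopamine neurons were the subject of the disease model and did not separate the groups with all 6 libraries. Of the 24 dopamine neuron genes tested, 0 were separated in either direction, 0 were at an unadjusted p under 0.05, and the median log2 fold change was 0.64. Such a count can only stay or rise when a library is left out. Without levodopa 2, 9 of the 24 were separated in the higher direction, against 12.1% of all genes. Without control 2, 0 were higher, against 10.6%, and 1 was lower, against 10.1%. Without both libraries numbered 2, 9 were higher, against 19.7%, and 1 was lower, against 17.7%. Th, tyrosine hydroxylase, which makes levodopa from tyrosine (chromosome 7, 142892779 to 142899995), was at 5.86, 7.42 and 27.9 CPM in the controls and 51.5, 3.28 and 44.4 CPM after levodopa. Levodopa 2 lay below every control and levodopa 1 and 3 above every control, giving means of 13.7 ± 12.3 and 33.1 ± 26 CPM (SD, n = 3 each). The log2 fold change of Th was 1.27 (SE 0.95, edgeR adjusted p = 1.00) and ran from 0.71 to 2.30 over the alternatives. The list median was 0.28 without control 1 and 1.35 without control 3. In the MPTP libraries Th was at 52.6, 67.7 and 36.1 CPM, above every control. A lower level of Th messenger RNA after MPTP and levodopa was thus not detectable in these libraries.

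Slc6a3, the dopamine transporter (chromosome 13, 73536128 to 73578672), was at 5.11, 0 and 55.3 CPM against 73.8, 0.129 and 75.5 CPM. Slc18a2, the vesicular monoamine transporter, was at 7.45, 0.131 and 44.1 CPM against 95.7, 2.79 and 55.2 CPM. Ddc, the decarboxylase that converts levodopa to dopamine, was at 13.8, 3.94 and 50.4 CPM against 85.0, 6.65 and 54.3 CPM. In these genes the libraries with cerebellar markers were the lowest of their group, control 1 was low, and control 3 was close to levodopa 3. In the MPTP libraries, Ddc was at 59.5, 70.4 and 58.7 CPM and Slc18a2 at 51.6, 74.4 and 60.2 CPM, above every control. Slc6a3 was at 78.4, 121 and 54.5 CPM there, where MPTP 3 lay below control 3. With the cerebellar block, 7 of the 24 genes were higher without overlap within both levels, against 11.7% of all genes. Slc6a3, Slc18a2 and Ddc were among them. Slc6a3 had only 0 reads in control 2 and 8 in levodopa 2, and Slc18a2 had 8 and 173. Also with the block, 4 of the 24 genes were higher at an unadjusted p under 0.05, against 4.61%. Nr4a2, the Nurr1 gene that the series title names (chromosome 2, 57106830 to 57124003), was at 4.56, 27.6 and 11.9 CPM against 10.7, 12.3 and 24.9 CPM. Its groups overlapped, its log2 fold change was 0.12 (SE 0.56, edgeR adjusted p = 1.00), and the direction turned to -0.31, -0.02 and -0.34 without control 1, control 3 or levodopa 3.

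The monoamine oxidases, which break dopamine down, did not separate the groups. Maoa was at 53.9, 50.8 and 63.0 CPM against 64.7, 57.7 and 66.1 CPM, and Maob was at 42.5, 15.7 and 37.6 CPM against 41.5, 20.5 and 45.2 CPM. Both overlapped, and the log2 fold change of Maob (0.16) turned to -0.17 without control 2 and -0.03 without levodopa 3.

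**Figure D4:**
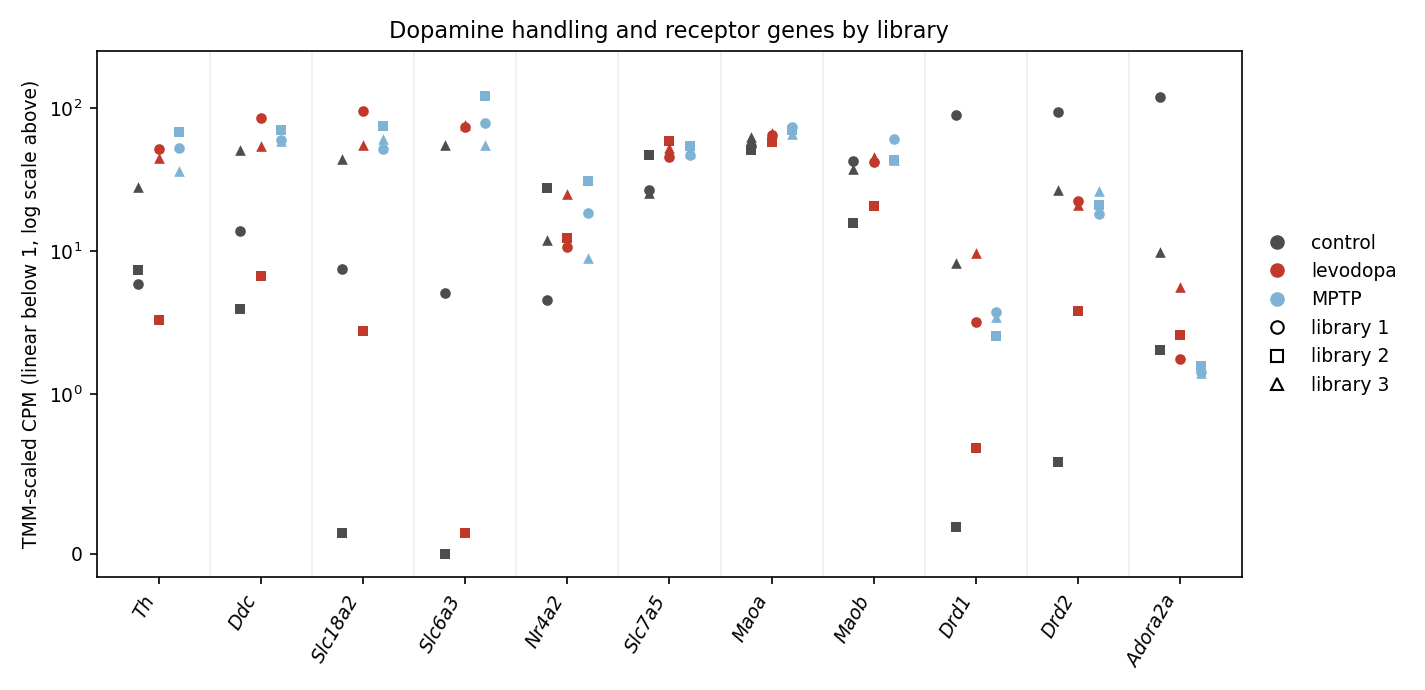
Levels of genes of dopamine synthesis, transport, breakdown and reception in TMM-scaled CPM, on a vertical axis that is linear below 1 and logarithmic above, 1 point per library. The control and levodopa squares (library 2, with high cerebellar markers) are the lowest points for Slc6a3 and Slc18a2, and control 1 is far above the other libraries for Drd1 and Adora2a.

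Striatal genes had lower means after levodopa, with control 1 the highest library for most of those named. Of 21 tested, 9 were lower at an unadjusted p under 0.05, against 1.7% of all genes, and the median log2 fold change was -1.36, which became 0.14 without control 1. Drd1, the dopamine receptor of direct-pathway neurons, was at 89.5, 0.164 and 8.20 CPM against 3.20, 0.660 and 9.75 CPM. Drd2, which marks indirect-pathway neurons and also dopamine neurons, was at 93.6, 0.575 and 26.8 CPM against 22.4, 3.82 and 20.9 CPM. Their log2 fold changes of -2.84 and -1.36 turned to 0.12 and 0.20 without control 1. Adora2a, the adenosine receptor of indirect-pathway neurons, was at 120, 2.04 and 9.82 CPM against 1.76, 2.61 and 5.61 CPM, so control 1 stood far above the rest, and its log2 fold change was -0.83 without control 1. Pde10a, a striatal phosphodiesterase, was the 1 separated gene, at 596, 164 and 97.5 CPM against 44.6, 80.6 and 71.2 CPM, where 3.11% of all genes were separated in that direction. Its log2 fold change of -2.13 was -0.99 without control 1. DESeq2 called Pde10a and Adora2a lower, against 0.118% of the genes to which it gave an adjusted p, although the groups of Adora2a overlapped. With the cerebellar block DESeq2 called 0 genes of the striatal list.

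Hypothalamic genes had a median log2 fold change of 1.73 over 17 members, with 0 separated. Hcrt, the orexin precursor, was at 0.0594, 0.0328 and 0.208 CPM in the controls and 2.27, 0 and 42.3 CPM after levodopa. Pmch, the melanin-concentrating hormone precursor, was at 0.683, 0.0985 and 5.27 CPM against 20.1, 0.241 and 269 CPM. Levodopa 3 was the highest for both, and levodopa 2 lay within or below the control range. DESeq2 called Hcrt higher although its groups overlapped, against 0.193% of the genes to which it gave an adjusted p. With the cerebellar block DESeq2 called 2 hypothalamic genes higher, against 0.69%, and Hcrt was not among them. Without levodopa 3 the list median turned to -0.28. The hypothalamic score was 0.98, -2.66 and -0.03 in the controls. It was 3.70 in levodopa 3 and 0.45 and -2.44 in levodopa 1 and 2, both below control 1. The MPTP libraries were at 3.67, 2.49 and 1.97.

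**Figure D5:**
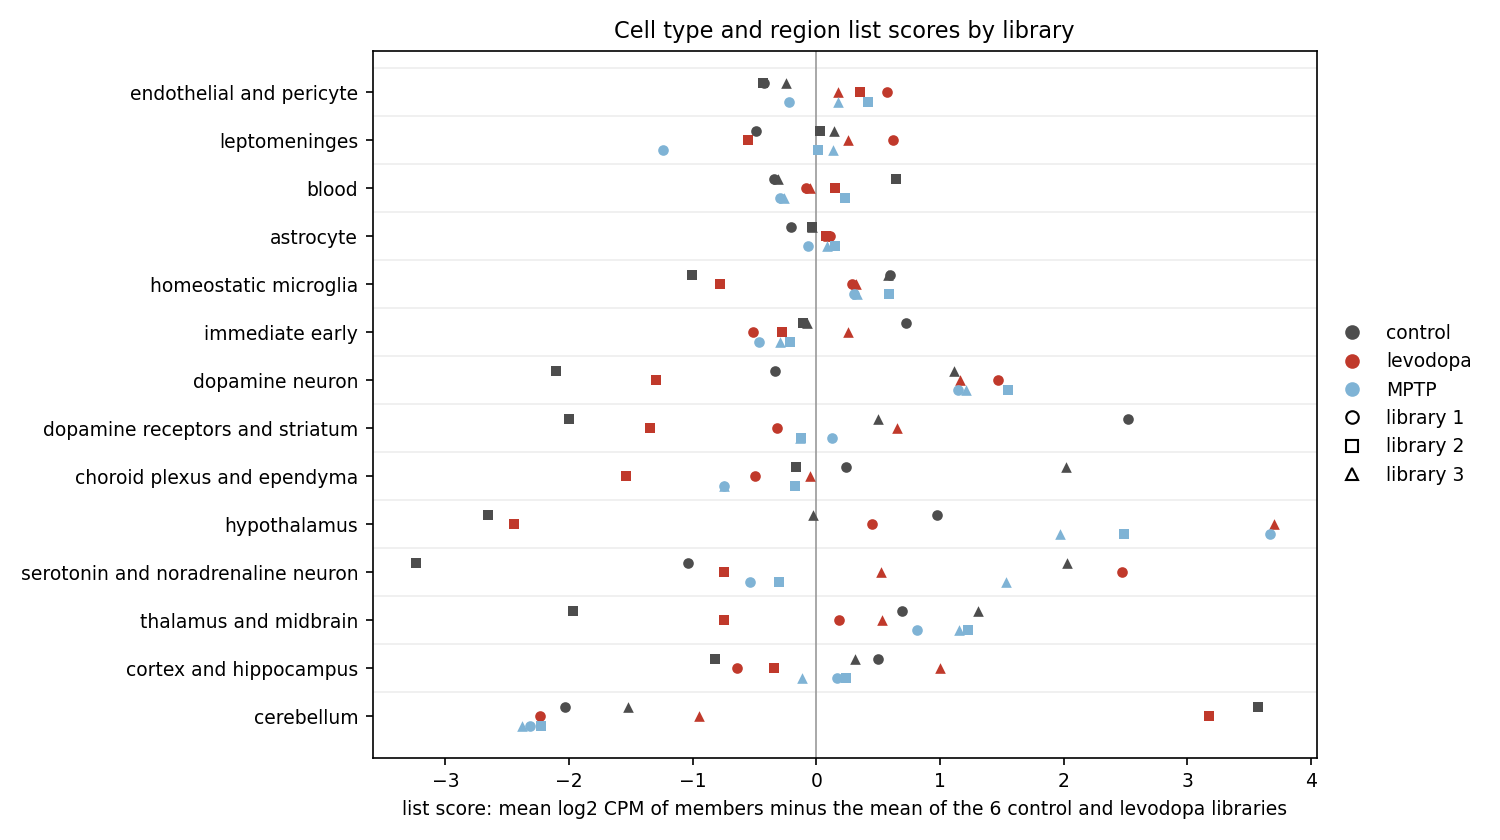
List scores per library (horizontal axis: mean log2 CPM of members, centred on the 6 control and levodopa libraries) for cell type and region lists. The vascular scores run from -0.43 to -0.25 in the controls and from 0.18 to 0.57 after levodopa, while the regional scores span several log2 units within a group.

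Glial and inflammatory genes showed few separated members with all 6 libraries, and more where the libraries with high cerebellar markers were left out. Leaving out a library can only keep or raise such a count, so the share over all genes is given for each. The 16 astrocyte genes had 0 members separated, yet their scores were -0.21, -0.04 and -0.04 in the controls and 0.11, 0.08 and 0.09 after levodopa, with a median log2 fold change of 0.11. Without both libraries numbered 2, 7 of the 16 astrocyte genes were separated in the higher direction, against 19.7% of all genes. The 20 homeostatic microglia genes had 0 separated and a median of -0.23, with the lowest scores (-1.01 and -0.78) in control 2 and levodopa 2. Without control 2, 13 of the 20 were separated in the lower direction, against 10.1% of all genes, and without both libraries numbered 2 the count was 13, against 17.7%. With any other single library left out the count was 0, which without levodopa 2 stood against 10.5% of all genes. With the cerebellar block, 3 were lower without overlap within both levels, against 11.2%. Btk, the kinase that the series' inhibitor targets, was at 0.965, 0.328 and 0.951 CPM against 0.587, 0.322 and 0.814 CPM and overlapped. Among 15 genes of activated microglia and inflammation, Axl was separated in the higher direction (48.2, 48.1 and 51.5 CPM against 62.2, 51.5 and 64.9 CPM) and Ccl3 in the lower. Over all genes, 3.31% were separated in the higher and 3.11% in the lower direction. For Axl, levodopa 2 lay above control 3 by less than the printed precision. Among 18 interferon genes only Ifit1 was separated, at 1.71, 2.04 and 2.18 CPM against 3.70, 2.43 and 3.60 CPM. It lay in the higher direction, as did 3.31% of all genes.

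Complex I, the target of the MPTP metabolite, had a median log2 fold change of -0.02 over 36 subunit genes. With all 6 libraries, Ndufb2 was separated in the higher direction, against 3.31% of all genes. Ndufa1 and Ndufa12 were separated in the lower direction, against 3.11%. Without control 1, 9 of the 36 were separated in the lower direction, against 5.88% of all genes, and without levodopa 1 the count was 9, against 5.24%. Ndufa12, an accessory subunit (chromosome 10, 94199035 to 94221440), was at 71.8, 66.5 and 88.7 CPM in the controls and 55.0, 45.4 and 50.4 CPM after levodopa. The MPTP libraries were at 71.7, 76.3 and 76.2 CPM, so the 3 levodopa libraries were the lowest of these 9. The log2 fold change of Ndufa12 was -0.59 (SE 0.13, edgeR adjusted p = 0.532). The Parkinson disease genes (17 tested, median 0.01), the antioxidant genes (18 tested, median -0.04, with Gclc separated in the lower direction) and the synaptic genes (22 tested, median -0.15) gave 0, 1 and 0 separated members.

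Further genes had among the smallest p-values. Pglyrp1, a secreted peptidoglycan-binding protein (chromosome 7, 18884690 to 18890438), was at 1.40, 1.13 and 1.68 CPM in the controls and 3.65, 3.67 and 3.73 CPM after levodopa, a difference of 1.39 on the log2 scale (SE 0.24, edgeR adjusted p = 0.428). The MPTP libraries lay between the groups, at 2.05, 2.68 and 2.87 CPM. Tbx3, a T-box transcription factor, was at 1.45, 1.41 and 2.2 CPM against 4.62, 3.93 and 6.16 CPM. Acads, a mitochondrial short-chain acyl-CoA dehydrogenase, was at 5.63, 5.73 and 5.58 CPM against 9.08, 8.81 and 8.25 CPM, with MPTP libraries at 6.89, 6.14 and 6.27 CPM. Malat1, a nuclear long noncoding RNA, was at 1294, 2265 and 1666 CPM against 894, 920 and 775 CPM, a difference of -1.01 on the log2 scale (SE 0.26, edgeR adjusted p = 0.734), and the MPTP libraries were at 603, 919 and 966 CPM. Zbtb16, a glucocorticoid-induced gene, was at 8.70, 8.77 and 17.7 CPM against 17.7, 28.6 and 61.7 CPM, where control 3 and levodopa 1 met.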

How the data were processed

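Messenger RNA was measured in mouse brain with TruSeq Stranded mRNA libraries, per the labels' protocols. The authors deposited whole-number read counts per gene symbol, not normalized. The submitters' processing notes name GRCm38 and the tools HISAT2 2.1.0, StringTie 2.1.3b, Trimmomatic and bcl2fastq 2.20.0. For annotation, strand and shared reads, the settings were not given in the sources used here. Thus overlapping, antisense and near-identical genes are uncertain. Depth was 63314658 to 68257095 reads, which sets a floor of 3 reads at 0.0474 CPM or less. No library pair of a group agreed within sampling noise (chi-square per degree of freedom 68.6 to 468).

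Groups came from the sample titles. Counts were fitted with edgeR 4.0.16 (R 4.3.3) in 1 quasi-likelihood model of all 15 libraries with TMM normalization, filterByExpr by group (21821 of 45777 symbols kept) and Benjamini-Hochberg adjustment at 0.05, without covariates and again with the cerebellar block. That block was set from measured Gabra6, so cerebellar genes in it are description only. Levels are TMM-scaled CPM. Standard errors were derived from the log2 fold change and the F statistic. List scores used log2 CPM with a prior count of 2. Lists were described by counts and medians, with no set test. The 30 lists and the compared libraries were chosen with earlier results of these data known. Named genes were those past the threshold and averaging 1 CPM or more, filled to 12 per direction and fit with the smallest unadjusted p among genes whose groups did not overlap (predicted genes left out), plus 11 study genes, 6 regional marks and the 4 members of each list with the smallest p; a selection is printed, and all other genes printed, list members among them (such as Kdr, Cldn5 and Nr4a1), were chosen after their values were seen. Some results are not reported here. Coordinates and promoter sequences are those of RefSeq, GRCm38.p6.

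Same-numbered libraries of both groups correlated in their deviations from the group means at 0.286, 0.801 and 0.368, which met the rule for pairing (over 0.1 in every pair), although control 3 with levodopa 1 reached 0.533 and control 1 with levodopa 3 reached 0.599. The labels do not say what the number stands for. On counts simulated from the real means, gene by gene and without regional differences, the fit without the block recovered 37 of 100 genes changed 2-fold and 82 of 100 changed 4-fold, with 5 false calls among 21414 genes. With the block it recovered 34 and 82, with 5 false calls. Tried as alternatives were DESeq2 1.42.0, upper-quartile and RLE normalization, other filters on low counts, fits of fewer libraries (each of the 6 left out singly, among others) and a replicate block. A fit of the 9 libraries without inhibitor was added after seeing the data.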

Additional observations from a re-analysis of the deposited data

How the results depend on the processing

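The count of genes passing was 0 with edgeR under RLE and upper-quartile normalization, both other filters, the 6 or 9 libraries alone and without both libraries numbered 2. DESeq2 called 66 genes without and 186 with the cerebellar block. When single libraries were left out, the counts ran from 0 to 1 without the block and from 0 to 3 with it. The 3 were Kcne2, Kl and Folr1, all lower, without control 1, and the 1 in each fit was LOC115486872, lower, without levodopa 3. The replicate block also gave 0 genes, in the 6 and in all 15 libraries, and so changed no call. Through the alternatives without the cerebellar block and the edgeR fit with it, 76 genes were followed. Many of these were chosen by a small p or by groups without overlap, so a stable direction partly follows from that choice. Of the 76, 72 never changed direction. With single libraries left out, the exceptions ranged from -4.08 to 0.12 (Drd1), -1.95 to 0.20 (Drd2), -0.34 to 0.96 (Nr4a2) and -0.17 to 0.43 (Maob) in log2 fold change. The direction turned for Drd1 and Drd2 without control 1, Nr4a2 (-0.31, -0.02 and -0.34) without control 1, control 3 and levodopa 3, and Maob (-0.17 and -0.03) without control 2 and levodopa 3. The cause was not tested. The endothelial and pericyte median ran from 0.67 to 0.79, and 12 of 30 list medians kept their sign throughout. Depth limits Kcne2, with 5 to 13 reads in the levodopa libraries, and Folr1, with 6 to 39. Hcrt had 0 reads in levodopa 2 and 2 to 14 in the controls.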
